A study of Mus musculus with 12 samples.

Results

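The genes described here are the chemokine ligands of the mouse left ventricle. They were chosen by symbol, as every row of the deposited count table named Ccl or Cxcl with a number and, for some, a letter, together with Cx3cl1 and Xcl1. This gave 39 of the 55401 genes in the table: 24 CC ligands, 13 CXC ligands, Cx3cl1 and Xcl1. Of them 26 had enough counts to be tested among the 17699 genes that passed the filter on low counts. The study sequenced messenger RNA from the hearts of wild-type (WT) mice and of mice with a T497A substitution in Prkca, the gene of protein kinase C alpha. T497A puts alanine in place of a threonine, a residue that can be phosphorylated. At 10 weeks of age the mice had transverse aortic constriction (TAC), a narrowing of the aorta over a 27-gauge needle that loads the left ventricle with pressure, or a sham operation. Tissue was taken 1 week later, at 11 weeks, from 4 groups of 3 libraries each: T497A after TAC, WT after TAC, T497A after sham and WT after sham. The labels give no strain, sex or zygosity.

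Chemokines are small secreted proteins that bind G-protein-coupled receptors on leukocytes and direct their migration along a gradient. The CC and CXC families are named for the spacing of their first cysteines, and Cx3cl1 and Cxcl16 are made as membrane-anchored proteins from which a soluble form can be cut. In the pressure-loaded heart, ligands that recruit monocytes through Ccr2 are made by resident macrophages, endothelial cells, fibroblasts and stressed myocytes, while ligands such as Cxcl12 are made in the healthy heart as well.

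Library totals ran between 58932759 and 72594085 counts, and levels are given as CPM, counts scaled to the library total and to TMM (trimmed mean of M values) factors. The labels name the left ventricle as the tissue and the cardiomyocyte as the cell type, and the libraries held transcripts of many cell types, with fibroblast, endothelial, mural and macrophage markers all detected in every group. The 3 T497A sham libraries stand apart from the others: Xist, which is transcribed from the inactive X chromosome, was at 215, 159.9 and 176 CPM there and at most 0.751 CPM elsewhere, and the Y-linked Ddx3y was at most 0.396 CPM there and 73.6 to 108 CPM elsewhere. The sex-linked transcripts and the T497A sham label cannot be told apart in any comparison that uses that group. The comparisons of T497A TAC with WT TAC, WT TAC with WT sham and T497A TAC with WT sham set other groups against each other, but the T497A sham libraries still entered their estimate of the spread, which all 12 libraries share. Prkca itself was at 50.3, 44.7 and 43.6 CPM in T497A TAC, 49.2, 50.7 and 51.0 CPM in WT TAC, 35.7, 34.7 and 31.1 CPM in T497A sham and 47.4, 43.5 and 42.2 CPM in WT sham, and gene counts cannot show a point substitution. The labels do not say that each library came from its own animal, so a p-value here measures the spread between libraries only. All changes are log2 ratios with their standard error (SE) from edgeR's quasi-likelihood test, p-values are adjusted by the Benjamini-Hochberg method over all 17699 genes, and a gene is called changed at an adjusted p under 0.05.

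Cxcl12, a ligand of Cxcr4 made by stromal and endothelial cells, held most of the ligand counts when these were not scaled for gene length. The 39 ligands together held between 288 and 407 CPM per library, and Cxcl12 made up 60.8 to 79.4% of that. The exons of Cxcl12 cover 8176 bases, the most of any ligand with a known length, so its share after scaling for length is lower. Per kilobase of exon, which allows genes to be compared, Cxcl12 averaged 29.5 CPM over the 12 libraries. Next came Cxcl14 at 8.71, Ccl6 at 7.04, Ccl21a at 5.85, Ccl8 at 3.99, Cxcl16 at 3.82, Cx3cl1 at 3.62 and Ccl9 at 3.07 CPM per kilobase. The order differed by group. In WT TAC ventricles Ccl8 reached 9.05, Cx3cl1 7.36 and Cxcl16 6.99 CPM per kilobase, each above Cxcl14 at 5.27. In WT sham ventricles Ccl8 stood at 1.17, Cx3cl1 at 2.29 and Cxcl16 at 2.34 CPM per kilobase, each below Cxcl14 at 10.5. In total 18 ligands averaged at least 1 CPM, not corrected for length.

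**Figure D1:**
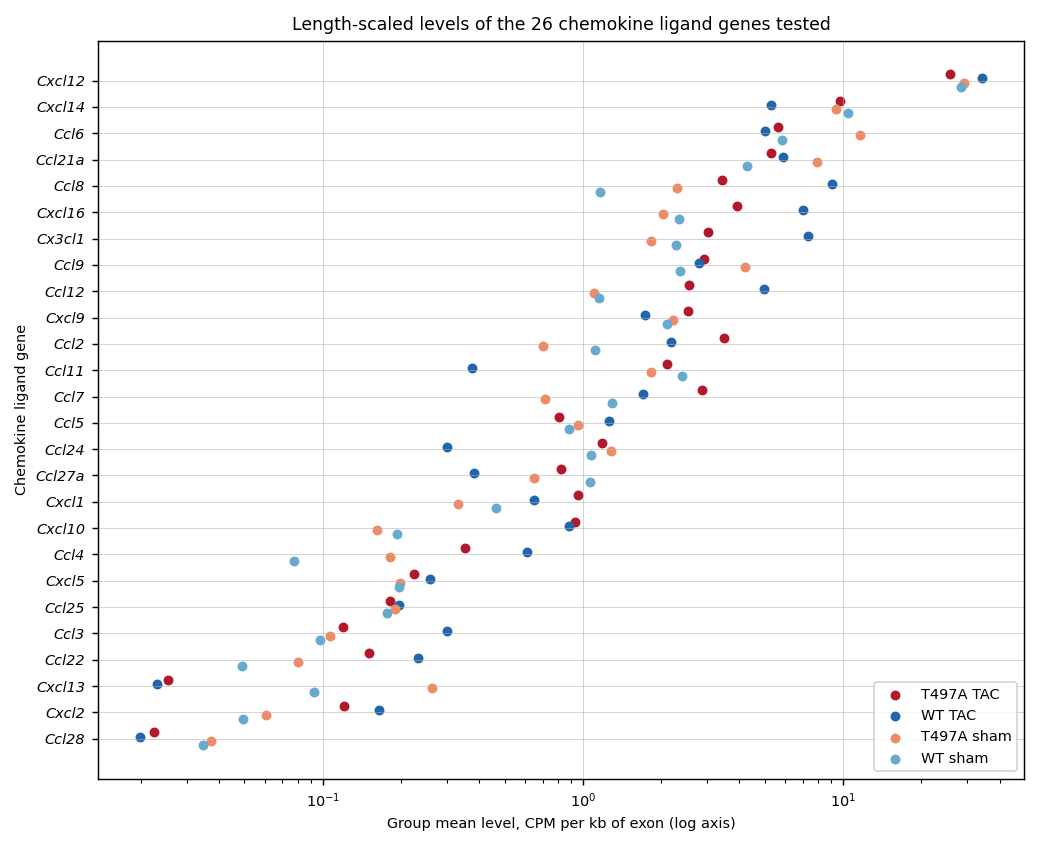
Group mean level of the 26 tested ligands in CPM per kilobase of exon, on a log axis, with 1 point per group of 3 libraries. Cxcl12 averages 29.5 CPM per kilobase and Ccl28, the lowest ligand tested, 0.0285.

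In WT ventricles TAC was followed by higher levels of 8 ligands, Ccl8, Ccl4, Cxcl10, Ccl12, Cx3cl1, Cxcl16, Ccl2 and Ccl21a, and lower levels of 4, Ccl11, Ccl24, Ccl27a and Cxcl14. These 12 were 46.2% of the 26 tested ligands, and 49.9% of all genes tested were called in that comparison, so the share of ligands called was close to that of genes in general. The median ligand difference was 0.44 on the log2 scale, against 0.03 for all genes. In T497A ventricles TAC was followed by higher levels of 7 ligands, Cxcl10, Ccl2, Ccl7, Cxcl1, Ccl12, Cxcl16 and Cx3cl1, and lower levels of 2, Ccl6 and Ccl21a. That was 34.6% of the tested ligands, where 24.4% of all genes were called, with medians of 0.20 for the ligands and 0.00 for all genes. Without T497A TAC 2 the count of 9 was 5.

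After TAC, T497A ventricles had more Ccl11, Ccl24, Ccl27a and Cxcl14 than WT ventricles, and less Cx3cl1, Ccl12, Cxcl16 and Cxcl12. The 8 calls were 30.8% of the tested ligands, and 35.7% of all genes were called. The median ligand difference was -0.03, against -0.02 for all genes, and without T497A TAC 3 the count was 5. Between the sham groups, T497A ventricles had more Ccl21a and less Ccl27a than WT ventricles, which is 7.69% of the tested ligands, where 5.79% of all genes were called, 2.99% higher and 2.80% lower. The medians were 0.09 for ligands and 0.00 for all genes. Without T497A sham 2 there were 4 calls, and without WT sham 1, 2 or 3, T497A sham 3, WT TAC 1 or T497A TAC 2 there was 1. T497A TAC against WT sham, a ratio of groups that leaves T497A sham aside, gave 5 ligands, all higher: Cxcl10, Ccl2, Ccl7, Ccl12 and Cxcl1. They were 19.2% of those tested, where 10.0% of all genes were called in either direction and 6.12% were called higher, and the medians were 0.29 for ligands and 0.00 for all genes. That count was 0 without T497A TAC 2, 1 without WT sham 3, 2 without WT sham 1, WT sham 2 or T497A TAC 3, and 3 without WT TAC 1 or T497A TAC 1. WT TAC against T497A sham, a comparison added after the data were seen, gave 15 calls, 8 higher and 7 lower, or 57.7% of the tested ligands beside 50.2% of all genes, with 25.6% called higher and 24.6% lower. The medians were 0.39 for ligands and 0.01 for all genes. These comparisons share libraries, so a ligand's calls in several of them are not independent of each other.

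**Figure D2:**
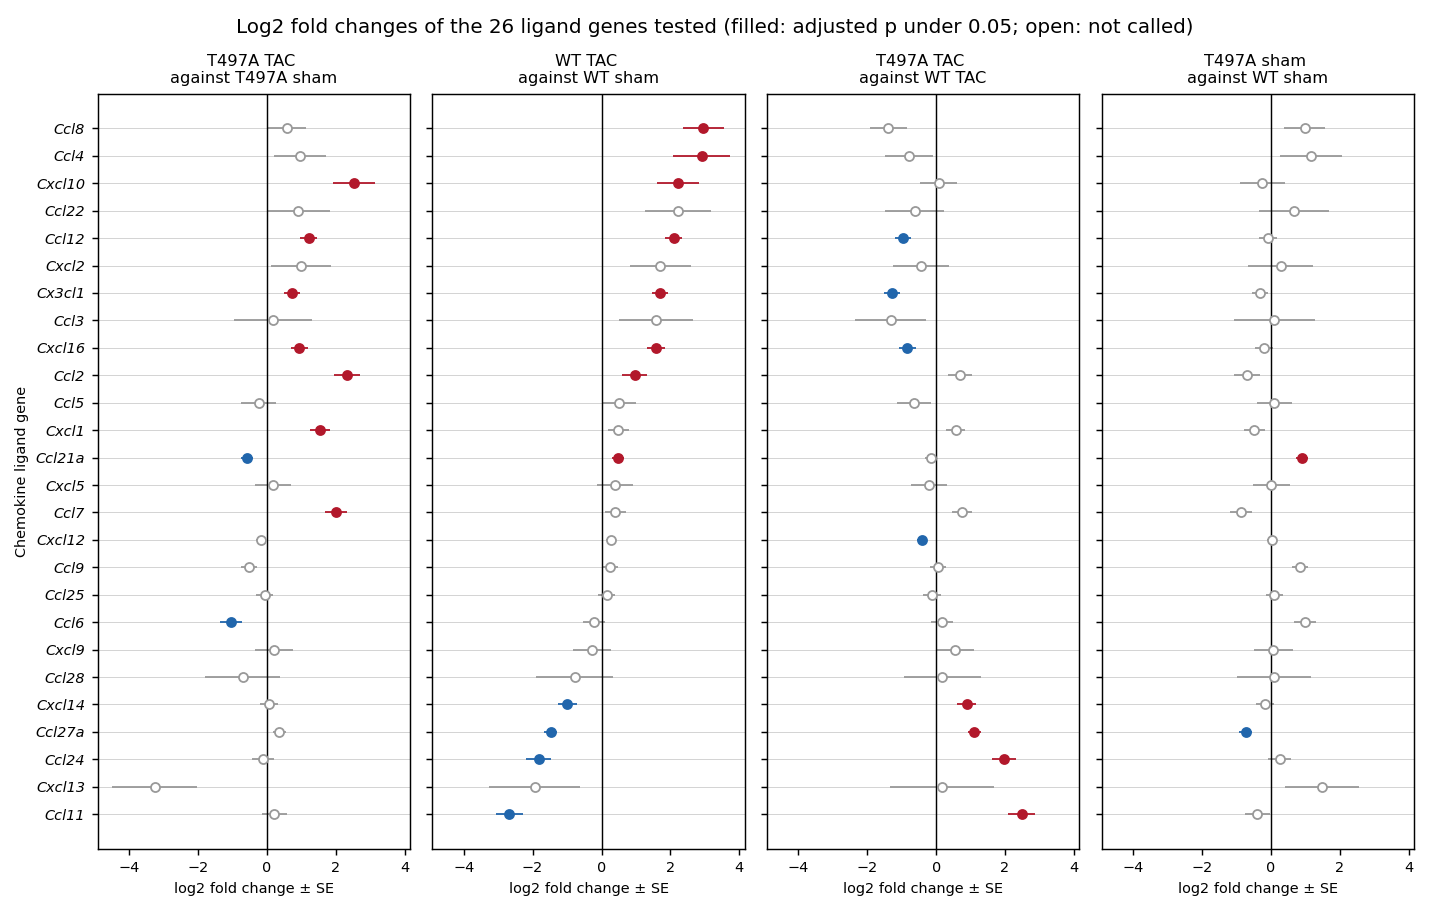
Log2 ratio with its SE for the 26 tested ligands in 4 comparisons, T497A TAC against T497A sham, WT TAC against WT sham, T497A TAC against WT TAC and T497A sham against WT sham. Filled points are called, in red where higher and in blue where lower, and open points are not. Ccl11 lies at -2.67 for WT TAC against WT sham and at 2.48 for T497A TAC against WT TAC, and Ccl7 at 2.00 for T497A TAC against T497A sham.

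Ccl2, Ccl7 and Ccl12, which draw monocytes through Ccr2, lie on chromosome 11 in a run of 81 kb that also holds Ccl11 and Ccl8. After TAC, Ccl2 and Ccl12 rose in both genotypes, Ccl7 in T497A and Ccl8 in WT. Ccl2 (ENSMUSG00000035385.5, chromosome 11, 82035571 to 82037453, plus strand, GRCm38), the main monocyte attractant of the group, was at 2.19, 4.38 and 5.38 CPM in T497A TAC and 2.15, 3.64 and 1.65 CPM in WT TAC. Its sham levels were 0.898, 0.609 and 0.882 CPM in T497A and 1.67, 1.03 and 1.12 CPM in WT. Every T497A TAC library lay above every sham library, the TAC groups overlapped, and WT TAC 3 lay just under WT sham 1. Ccl2 rose (log2 ratio 2.32 ± 0.37, adjusted p = 0.000583) in T497A TAC against T497A sham. It rose (0.96 ± 0.36, adjusted p = 0.0381) in WT TAC against WT sham. T497A TAC exceeded WT sham (1.65 ± 0.36, adjusted p = 0.0123), and the ratio of T497A TAC to WT TAC (0.68 ± 0.34, adjusted p = 0.139) was not called. That ratio was called by limma-voom (adjusted p = 0.0024) and without WT TAC 2 (adjusted p = 0.0275) or T497A TAC 1 (adjusted p = 0.0283). The interaction term of Ccl2 (1.36, adjusted p = 0.0598) was not called. It was called by DESeq2 (adjusted p = 0.0274), by limma-voom (adjusted p = 0.0304) and without WT TAC 2 (adjusted p = 0.0124) or T497A TAC 1 (adjusted p = 0.0141). The WT rise was lost under 9 of 22 alternatives, given here with the adjusted p in brackets. It was no longer called without WT sham 2 (0.127), WT sham 3 (0.117), T497A sham 3 (0.0502), WT TAC 2 (0.192) and T497A TAC 2 (0.0527). Nor was it called without the whole T497A sham group (0.0568), by limma-voom (0.0578), with no filter (0.0528) or with a replicate block (0.0729). The excess of T497A TAC over WT sham was lost without WT sham 2 (0.0593), WT sham 3 (0.0573) and T497A TAC 2 (0.0529). In bulk tissue such as this, a change in the number of cells of a type and a change in RNA per cell cannot be told apart.

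Ccl7 (ENSMUSG00000035373.2, chromosome 11, 82045712 to 82047525, plus strand), which binds Ccr2 and other CC receptors, was highest in T497A TAC ventricles, with 2.22, 2.02 and 2.66 CPM, against 1.35, 1.63 and 1.12 CPM in WT TAC ventricles. Ccl7 after sham was at 0.359, 0.853 and 0.499 CPM in T497A and 0.819, 1.36 and 0.947 CPM in WT. No library of another group reached the lowest T497A TAC library, and the WT TAC and WT sham libraries overlapped. Ccl7 rose (2.00 ± 0.31, adjusted p = 0.000416) in T497A TAC against T497A sham, and T497A TAC exceeded WT sham (1.14 ± 0.30, adjusted p = 0.0281). Neither WT TAC against WT sham (0.39 ± 0.30, adjusted p = 0.304) nor T497A TAC against WT TAC (0.75 ± 0.29, adjusted p = 0.0609) was called. The higher Ccl7 in T497A TAC than in WT TAC was called under 9 of 22 alternatives, among them leaving out T497A sham 1 (adjusted p = 0.0387) or T497A sham 2 (adjusted p = 0.0325). The excess over WT sham was lost without WT sham 1 (0.118), WT sham 3 (0.097), T497A TAC 1 (0.053), T497A TAC 2 (0.068) and T497A TAC 3 (0.0931).

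Ccl12 (ENSMUSG00000035352.3, chromosome 11, 82101845 to 82103400, plus strand), a mouse ligand of Ccr2, and Ccl8 (ENSMUSG00000009185.2, chromosome 11, 82115185 to 82116799, plus strand), whose mouse form acts through Ccr8, are neighbours. Their promoters are shown because they are neighbours in the cluster and both rose with TAC in WT. Ccl2, which lies in the same cluster and was also called higher in WT TAC, is not shown. These are the 250 bases before the RefSeq start in GRCm38.p6, given on the gene's strand, with a TATA box (TATAAA) in capitals.
Ccl12, chr11:82101595-82101844, plus strand: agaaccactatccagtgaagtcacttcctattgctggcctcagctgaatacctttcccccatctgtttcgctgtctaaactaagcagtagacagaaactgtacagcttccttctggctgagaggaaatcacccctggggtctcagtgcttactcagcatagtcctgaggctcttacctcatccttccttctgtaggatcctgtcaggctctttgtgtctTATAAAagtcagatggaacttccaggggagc
Ccl8, chr11:82114935-82115184, plus strand: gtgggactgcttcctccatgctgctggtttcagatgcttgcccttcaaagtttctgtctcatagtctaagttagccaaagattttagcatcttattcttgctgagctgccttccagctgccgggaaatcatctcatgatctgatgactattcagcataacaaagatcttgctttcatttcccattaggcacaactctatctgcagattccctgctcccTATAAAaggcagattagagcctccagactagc
TATAAA was found on the gene's strand 31 to 26 bases before the start of Ccl12 and 32 to 27 bases before that of Ccl8. It overlapped no other motif searched, and 12.4% of the 32851 mouse promoters in the table hold it on either strand. Of the 28 ligand genes with a promoter there, 10 hold it. The others are Ccl9, Ccl25, Ccl27b, Cx3cl1, Cxcl3, Cxcl9, Cxcl13 and Cxcl15.

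Ccl12 was at 1.21, 1.52 and 1.37 CPM in T497A TAC and 2.53, 2.7 and 2.77 CPM in WT TAC. Ccl12 after sham was at 0.735, 0.472 and 0.566 CPM in T497A and 0.682, 0.440 and 0.744 CPM in WT. The WT TAC libraries lay above the T497A TAC libraries, which in turn lay above all sham libraries. Ccl12 rose (1.21 ± 0.25, adjusted p = 0.00305) in T497A TAC against T497A sham and (2.09 ± 0.25, adjusted p = 8.55e-06) in WT TAC against WT sham. T497A TAC was lower than WT TAC (-0.96 ± 0.24, adjusted p = 0.00537), and higher than WT sham (1.13 ± 0.25, adjusted p = 0.0124). The last of these was lost without WT sham 2 (0.0537) and T497A TAC 2 (0.0596), and the other 3 held under every alternative run. Ccl8 was at 1.64, 2.06 and 1.57 CPM in T497A TAC and 3.92, 5.30 and 4.66 CPM in WT TAC. Ccl8 after sham was at 2.48, 0.396 and 0.666 CPM in T497A and 0.273, 0.770 and 0.744 CPM in WT. The WT TAC libraries were the highest, and T497A sham 1 lay above every T497A TAC library. Ccl8 rose (2.96 ± 0.59, adjusted p = 0.00153) in WT TAC against WT sham. That call held under every alternative run. The ratios of T497A TAC to T497A sham (0.58 ± 0.55, adjusted p = 0.502) and to WT TAC (-1.40 ± 0.54, adjusted p = 0.0652) were not called. Both were called without T497A sham 1: the ratio of T497A TAC to T497A sham was then 1.73 with an adjusted p of 0.00541, and the ratio of T497A TAC to WT TAC was -1.39 with an adjusted p of 0.002. The lower Ccl8 in T497A TAC than in WT TAC was also called without the whole T497A sham group (adjusted p = 0.00209), and in all under 8 of 22 alternatives.

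The membrane-anchored ligands Cx3cl1 and Cxcl16 followed one pattern, with WT TAC highest, T497A TAC next and both sham groups low. Cx3cl1 (ENSMUSG00000031778.13, chromosome 8, 94772009 to 94782427, plus strand), or fractalkine, tethers and attracts Cx3cr1-bearing monocytes and macrophages. It was at 12.4, 13.1 and 10.2 CPM in T497A TAC and 26.3, 39.3 and 21.2 CPM in WT TAC. Its sham libraries held 5.94, 7.72 and 7.89 CPM in T497A and 8.70, 11.2 and 7.08 CPM in WT. The TAC groups did not overlap each other, and the T497A TAC libraries overlapped those of WT sham. Cx3cl1 rose (1.69 ± 0.23, adjusted p = 0.000119) in WT TAC against WT sham and (0.73 ± 0.24, adjusted p = 0.0455) in T497A TAC against T497A sham. It was lower in T497A TAC than in WT TAC (-1.28 ± 0.23, adjusted p = 0.00133). The rise in T497A was lost without WT sham 1 (0.0661), T497A sham 1 (0.145), T497A sham 2 (0.0833), T497A sham 3 (0.0827), WT TAC 1 (0.0571), T497A TAC 1 (0.116), T497A TAC 2 (0.133) and T497A TAC 3 (0.056). It was also lost with library totals in place of TMM factors and with no filter, and the calls in WT TAC against WT sham and in T497A TAC against WT TAC held under every alternative.

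Cxcl16 (ENSMUSG00000018920.11, chromosome 11, 70453983 to 70459984, minus strand) binds Cxcr6 on T cells and also acts as a scavenger receptor for oxidised lipoprotein. It was at 13.3, 11.8 and 10.5 CPM in T497A TAC and 18.4, 30.8 and 14.2 CPM in WT TAC. Cxcl16 after sham was at 5.63, 5.89 and 6.96 CPM in T497A and 5.78, 8.18 and 7.24 CPM in WT. The TAC groups did not overlap, and both lay above all sham libraries. Cxcl16 rose (1.58 ± 0.25, adjusted p = 0.000269) in WT TAC against WT sham and (0.94 ± 0.25, adjusted p = 0.0183) in T497A TAC against T497A sham. In T497A TAC it was lower than in WT TAC (-0.84 ± 0.24, adjusted p = 0.0192). The rise in T497A was lost without T497A sham 1 (0.0693), T497A sham 2 (0.061), T497A TAC 1 (0.0639) and T497A TAC 2 (0.0507), and the difference between the TAC groups without T497A TAC 2 (0.0609) and T497A TAC 3 (0.0755). With no filter neither was called (adjusted p = 0.0661 and 0.0709). The difference between the TAC groups in Cxcl16 was also lost with only the 2 groups compared (0.0607). Its exons overlap those of Zmynd15 on the other strand, which averaged 3.56 CPM in T497A TAC, 6.27 in WT TAC, 1.51 in T497A sham and 2.7 in WT sham. The sources used here do not say whether the counting used strand, so reads from the 2 genes cannot be told apart.

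The sheddases that release both ligands were tested as well. Adam10, which cuts them in unstimulated cells, was at 83.6 ± 0.265 CPM in T497A TAC, 106 ± 8.60 in WT TAC, 59.0 ± 3.58 in T497A sham and 65.5 ± 5.69 in WT sham (mean ± SD, n = 3 each). Adam10 rose (0.69 ± 0.07, adjusted p = 3.31e-06) in WT TAC against WT sham and (0.50 ± 0.07, adjusted p = 0.000265) in T497A TAC against T497A sham, and was lower in T497A TAC than in WT TAC (-0.34 ± 0.07, adjusted p = 0.00255). Adam17, the inducible sheddase, rose (0.44 ± 0.06, adjusted p = 2.59e-05) in WT TAC and fell in T497A TAC against T497A sham (-0.20 ± 0.06, adjusted p = 0.0252). That fall was lost without T497A sham 2 (0.0726), T497A sham 3 (0.0852), T497A TAC 1 (0.0674), T497A TAC 2 (0.0767) and T497A TAC 3 (0.0611). T497A TAC was below WT TAC (-0.52 ± 0.06, adjusted p = 1.9e-05). Of the 6 listed enzymes that cut chemokines, 3 rose and 1 fell in WT TAC against WT sham and 2 rose and 2 fell in T497A TAC against T497A sham, where 49.9% and 24.4% of all genes were called. Between T497A TAC and WT TAC, 1 was higher in T497A and 3 were lower, beside 35.7% of all genes called. Mmp2, which can trim Cxcl12 and Ccl7, rose (2.08 ± 0.13, adjusted p = 1.05e-07) in WT TAC and (0.88 ± 0.12, adjusted p = 0.000334) in T497A TAC, and was lower in T497A TAC than in WT TAC (-1.28 ± 0.12, adjusted p = 1.16e-05).

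Among the CXC ligands that are induced in inflammation, Cxcl10 rose after TAC in both genotypes and Cxcl1 in T497A. Cxcl10 is induced by interferon and attracts T cells through Cxcr3, and Cxcl1 and Cxcl2 attract neutrophils through Cxcr2. Their promoters are shown because motifs of the factors known to drive these genes can be read in them. Each is the 250 bases before the RefSeq start in GRCm38.p6 on the gene's strand. Capitals mark matches to an NF-kB-like motif in Cxcl1 and Cxcl2 (GGG, any 2 bases, then TTTCC) and to an interferon response element-like motif in Cxcl10 (GAAA, any 2 bases, then GAAA).
Cxcl1, chr5:90890995-90891244, plus strand: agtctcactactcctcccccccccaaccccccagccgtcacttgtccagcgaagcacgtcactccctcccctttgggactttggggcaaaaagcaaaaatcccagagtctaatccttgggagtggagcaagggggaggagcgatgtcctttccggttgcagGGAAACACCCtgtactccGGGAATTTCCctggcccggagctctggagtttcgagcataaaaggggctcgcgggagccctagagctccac
Cxcl2, chr5:90903649-90903898, plus strand: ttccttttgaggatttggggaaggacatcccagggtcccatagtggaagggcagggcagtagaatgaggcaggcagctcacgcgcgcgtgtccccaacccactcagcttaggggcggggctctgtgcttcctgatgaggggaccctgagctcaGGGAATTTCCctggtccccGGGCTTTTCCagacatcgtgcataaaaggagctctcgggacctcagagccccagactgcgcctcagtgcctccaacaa
Cxcl10, chr5:92348890-92349139, minus strand: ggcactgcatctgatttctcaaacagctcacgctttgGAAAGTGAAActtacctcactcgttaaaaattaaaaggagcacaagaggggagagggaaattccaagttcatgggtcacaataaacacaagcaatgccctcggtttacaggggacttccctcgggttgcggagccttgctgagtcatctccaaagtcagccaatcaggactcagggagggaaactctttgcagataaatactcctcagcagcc
Cxcl1 and Cxcl2 each hold 2 matches to the NF-kB-like motif, of which the first in Cxcl1 is on the opposite strand, and 1.41% of all 32851 promoters hold a match. Cxcl10 holds 1 match to the interferon response element-like motif, found in 2.98% of promoters, and 1 match to the AP-1-like TGANTCA, left in lower case, found in 6.75%. No 2 matches in these promoters overlapped, both strands were searched, and a match is a run of letters in this window and no more than that. In all, 34 promoters of 28 of the 39 ligand genes were in the table. The NF-kB-like motif was also found for Ccl9, Ccl20 and Cxcl3, the interferon response element-like motif for Ccl19 and Cxcl14, TGANTCA for Ccl9, Ccl27a and Ccl27b, and the STAT-like TTCNNNGAA, held by 7.02% of promoters, for Ccl17 and Cxcl14.

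Cxcl10 (ENSMUSG00000034855.13, chromosome 5, 92346638 to 92348889, minus strand) was at 1.61, 2.05 and 2.63 CPM in T497A TAC and 1.92, 2.90 and 1.17 CPM in WT TAC. Cxcl10 after sham was at 0.621, 0.107 and 0.366 CPM in T497A and 0.136, 0.807 and 0.355 CPM in WT. Every TAC library lay above every sham library, and the TAC groups overlapped. Cxcl10 rose (2.53 ± 0.62, adjusted p = 0.011) in T497A TAC against T497A sham and (2.21 ± 0.61, adjusted p = 0.00908) in WT TAC against WT sham, and T497A TAC exceeded WT sham (2.28 ± 0.61, adjusted p = 0.0356). That last call was lost without WT sham 1 (0.105), WT sham 3 (0.123), T497A sham 3 (0.0541), WT TAC 1 (0.0592), T497A TAC 1 (0.0533), T497A TAC 2 (0.1) and T497A TAC 3 (0.1). The ratio of T497A TAC to WT TAC (0.07 ± 0.54, adjusted p = 0.936) was not called. The exons of Cxcl10 overlap those of Art3 on the other strand, which averaged 239 CPM in T497A TAC, 142 in WT TAC, 422 in T497A sham and 331 in WT sham, the TAC groups below the sham groups.

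Cxcl1 (ENSMUSG00000029380.11, chromosome 5, 90891241 to 90893115, plus strand) was at 1.09, 2.40 and 1.92 CPM in T497A TAC and 1.11, 1.42 and 1.13 CPM in WT TAC. Cxcl1 after sham was at 0.621, 0.579 and 0.666 CPM in T497A and 1.09, 0.770 and 0.744 CPM in WT. Every TAC library lay above every sham library, though T497A TAC 1 and WT sham 1 gave the same rounded value, and the TAC groups overlapped. Cxcl1 rose (1.53 ± 0.30, adjusted p = 0.00201) in T497A TAC against T497A sham, and T497A TAC exceeded WT sham (1.05 ± 0.29, adjusted p = 0.0359). WT TAC against WT sham was not called (0.49 ± 0.29, adjusted p = 0.187), except with library totals in place of TMM factors (adjusted p = 0.0277). T497A TAC against WT TAC was not called either (0.56 ± 0.28, adjusted p = 0.142), though it was by limma-voom (adjusted p = 0.0036) and without T497A TAC 1 (adjusted p = 0.03). The interaction term of Cxcl1 (1.05, adjusted p = 0.0743) was called by limma-voom (adjusted p = 0.0361) and without T497A TAC 1 (adjusted p = 0.0193). The excess over WT sham was lost without WT sham 1 (0.0526), WT sham 2 (0.118), WT sham 3 (0.12), WT TAC 1 (0.0525), T497A TAC 2 (0.182) and T497A TAC 3 (0.0943). Cxcl2 stayed between 0 and 0.454 CPM and Cxcl5, another neutrophil attractant, between 0.147 and 0.631 CPM over the 12 libraries, with neither called by edgeR in any comparison. Limma-voom called Cxcl2 in WT TAC against WT sham (adjusted p = 0.0176) and in WT TAC against T497A sham (adjusted p = 0.0316). Neutrophil markers were few: the 8 listed genes, Cxcr2 among them, summed to 2.93 to 4.17 CPM in T497A TAC, 4.46 to 5.49 in WT TAC, 1.75 to 3.01 in T497A sham and 1.47 to 3.30 in WT sham.

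Cxcl9 (ENSMUSG00000029417.9, chromosome 5, 92321347 to 92328079, minus strand), the other interferon-induced ligand of Cxcr3 with enough counts, was not called by edgeR in any of the 6 planned comparisons with all 12 libraries. It was at 8.27, 6.80 and 7.87 CPM in T497A TAC and 4.49, 6.19 and 5.02 CPM in WT TAC. Cxcl9 after sham was at 14.0, 3.47 and 2.56 CPM in T497A and 4.33, 7.15 and 7.57 CPM in WT. The T497A TAC libraries lay above those of WT TAC by a narrow gap, and T497A sham 1 was the highest of all 12 while the other 2 of its group were the lowest. Irf1, a transcription factor that interferon induces, was at 48.0, 18.3 and 18.8 CPM in T497A sham, so library 1 was high for it too. Ccl8 and Cxcl10 were also highest in T497A sham 1 within that group. Leaving this library out changed several calls. Without it Cxcl9 was lower in T497A sham than in WT sham by -1.07 with an adjusted p of 0.0228, where with it the ratio was 0.07 ± 0.56, adjusted p = 0.969. Cxcl9 was then also higher in T497A TAC than in T497A sham by 1.34 (adjusted p = 0.00163) and than in WT TAC by 0.55 (adjusted p = 0.0465), with an interaction term of 1.62 (adjusted p = 0.00193). WT TAC was then above T497A sham by 0.79 (adjusted p = 0.0138). The ratios of Ccl8 without this library are given above.

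**Figure D3:**
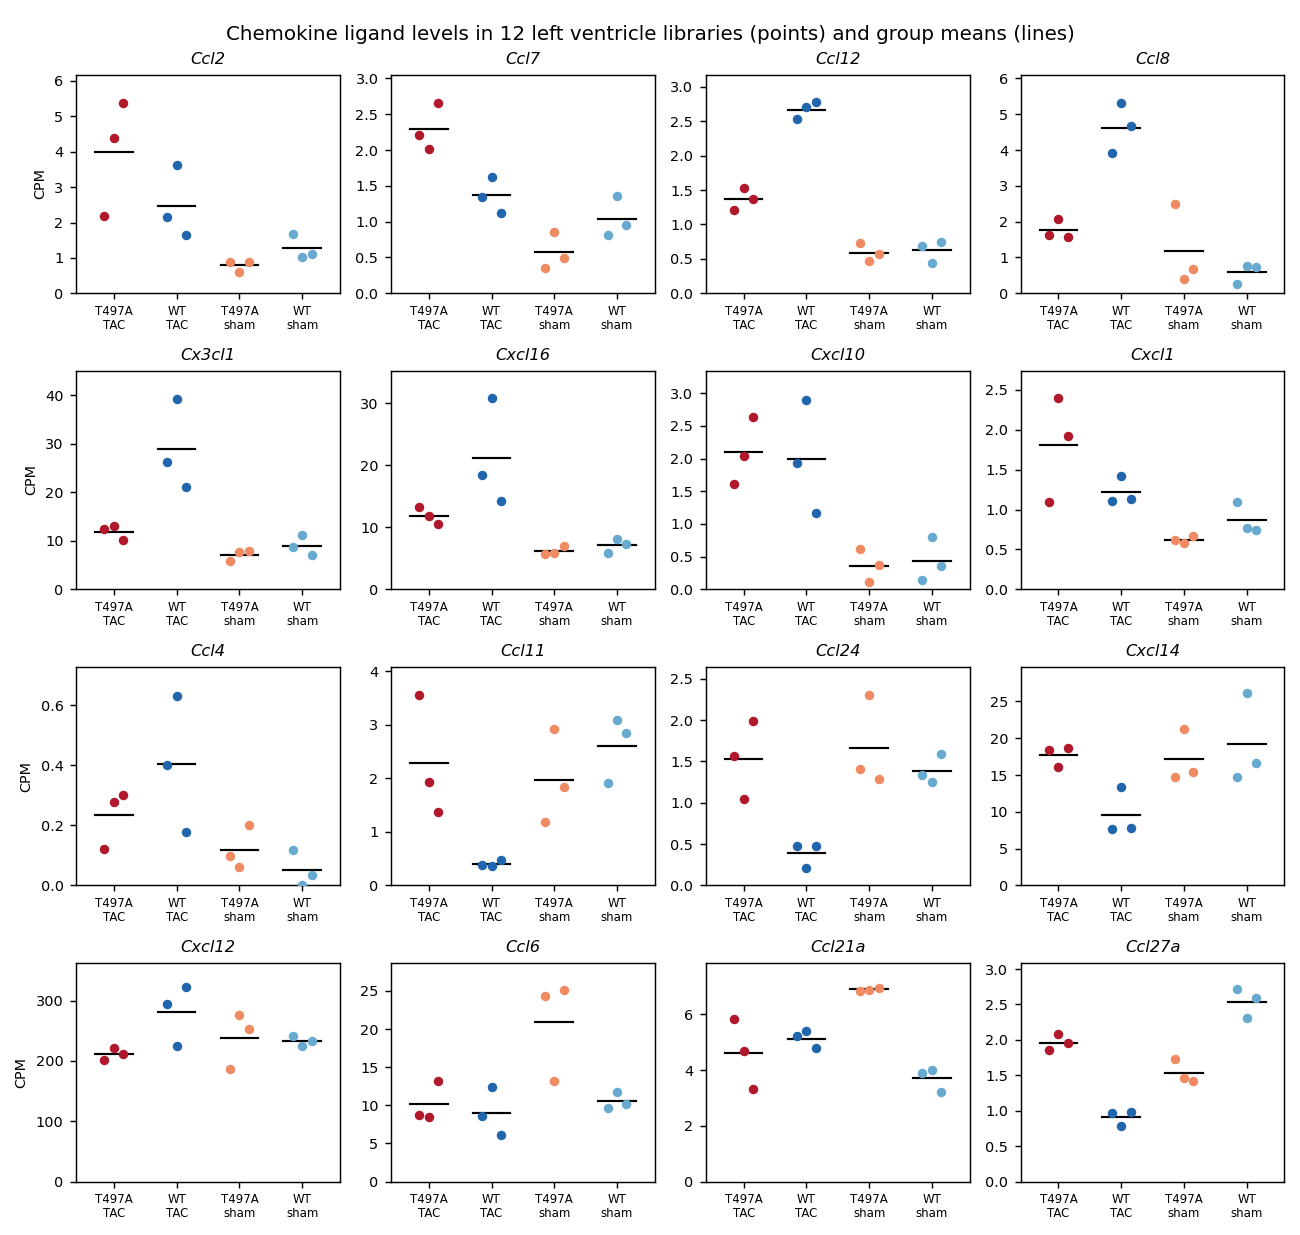
Level of 16 ligands in CPM in each of the 12 libraries, 1 point per library, by group of 3. Ccl11 and Ccl24 are lowest in the WT TAC libraries, Ccl12, Ccl8, Cx3cl1 and Cxcl16 are highest there, and Ccl7 is highest in the T497A TAC libraries.

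The eotaxins fell with TAC in WT ventricles and were not called changed by TAC in T497A ventricles. Ccl11 (ENSMUSG00000020676.2, chromosome 11, 82057823 to 82062955, plus strand), made by fibroblasts and other stromal cells, attracts eosinophils through Ccr3. It was at 3.55, 1.94 and 1.37 CPM in T497A TAC and 0.374, 0.367 and 0.479 CPM in WT TAC. Ccl11 after sham was at 1.18, 2.92 and 1.83 CPM in T497A and 1.91, 3.08 and 2.84 CPM in WT. All 3 WT TAC libraries lay below the 9 others. Ccl11 fell in WT TAC against WT sham (-2.67 ± 0.40, adjusted p = 7.61e-05) and was higher in T497A TAC than in WT TAC (2.48 ± 0.40, adjusted p = 0.000295). T497A TAC against T497A sham was not called (0.21 ± 0.36, adjusted p = 0.729). Both calls held under every alternative run. The fibroblast marker sum was highest where Ccl11 was lowest. Its 8 genes gave 2724 to 3632 CPM in T497A TAC, 6529 to 11861 in WT TAC, 2737 to 3516 in T497A sham and 2661 to 3002 in WT sham. In WT TAC against WT sham 7 of them were called higher and 1 lower, where 49.9% of all genes were called. Between T497A TAC and WT TAC, 1 was higher in T497A and 7 were lower, where 35.7% of all genes were called.

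Ccl24 (ENSMUSG00000004814.10, chromosome 5, 135569937 to 135573049, minus strand), the eotaxin of macrophages, was at 1.56, 1.05 and 1.99 CPM in T497A TAC and 0.481, 0.210 and 0.479 CPM in WT TAC. Ccl24 after sham was at 1.40, 2.30 and 1.28 CPM in T497A and 1.33, 1.25 and 1.59 CPM in WT. As with Ccl11, all WT TAC libraries lay below the 9 others. Ccl24 fell in WT TAC against WT sham (-1.83 ± 0.36, adjusted p = 0.000613), was higher in T497A TAC than in WT TAC (1.97 ± 0.36, adjusted p = 0.000627), and was not called in T497A TAC against T497A sham (-0.12 ± 0.33, adjusted p = 0.838). Both calls held under every alternative run. The macrophage marker sum too was highest in WT TAC. Its 12 genes gave 338 to 363 CPM in T497A TAC, 457 to 678 in WT TAC, 288 to 353 in T497A sham and 249 to 299 in WT sham. In WT TAC against WT sham 9 of them were called higher and 2 lower, where 49.9% of all genes were called. Between T497A TAC and WT TAC, 1 was higher in T497A and 9 were lower, where 35.7% of all genes were called. The eotaxin receptor Ccr3 had 22 counts over all 12 libraries and was not tested.

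Cxcl12, Cxcl14, Ccl21a and Ccl27a belong to the homeostatic ligands, which tissues make without inflammation. Cxcl12 (ENSMUSG00000061353.11, chromosome 6, 117168535 to 117181367, plus strand) keeps Cxcr4-bearing cells in their niches. It was at 202, 221 and 211 CPM in T497A TAC and 294, 225 and 323 CPM in WT TAC. Cxcl12 after sham was at 187, 277 and 253 CPM in T497A and 242, 224 and 234 CPM in WT. The TAC groups did not overlap, though T497A TAC 2 and WT TAC 2 were close, and the sham groups spanned much of the same range. Cxcl12 was lower in T497A TAC than in WT TAC (-0.41 ± 0.14, adjusted p = 0.0439). That call was lost under 11 of 22 alternatives, among them leaving out WT sham 1 (0.0615), WT sham 2 (0.0616), WT sham 3 (0.0623), T497A sham 3 (0.0583), WT TAC 1 (0.12), WT TAC 3 (0.164), T497A TAC 1 (0.131), T497A TAC 2 (0.0855) and T497A TAC 3 (0.107). WT TAC against WT sham (0.27 ± 0.14, adjusted p = 0.146) and T497A TAC against T497A sham (-0.18 ± 0.14, adjusted p = 0.416) were not called. The ratio of WT TAC to WT sham for Cxcl12 was called under 3 of 22 alternatives. These were library totals in place of TMM factors (adjusted p = 0.00147), limma-voom (adjusted p = 0.00853) and leaving out WT TAC 2 (adjusted p = 0.0353).

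Cxcl14 (ENSMUSG00000021508.11, chromosome 13, 56288643 to 56296551, minus strand), an epithelial and stromal ligand whose signalling receptor is debated, was at 18.4, 16.1 and 18.7 CPM in T497A TAC and 7.62, 13.4 and 7.87 CPM in WT TAC. Cxcl14 after sham was at 14.8, 21.3 and 15.4 CPM in T497A and 14.8, 26.1 and 16.6 CPM in WT. All WT TAC libraries lay below the 9 others. Cxcl14 fell in WT TAC against WT sham (-0.99 ± 0.27, adjusted p = 0.011) and was higher in T497A TAC than in WT TAC (0.88 ± 0.27, adjusted p = 0.0275). With library totals in place of TMM factors neither was called (adjusted p = 0.0714 and 0.0963). The fall in WT TAC was also lost without WT TAC 3 (0.05), and the difference between the TAC groups without WT TAC 1 (0.0937), WT TAC 3 (0.0984), T497A TAC 1 (0.0748) and T497A TAC 3 (0.0759). T497A TAC against T497A sham was not called (0.05 ± 0.26, adjusted p = 0.924).

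Ccl21a (ENSMUSG00000094686.1, chromosome 4, 42772860 to 42773993, minus strand) is made by lymphatic endothelium and guides Ccr7-bearing dendritic cells and T cells to lymphatic vessels. It was at 5.83, 4.68 and 3.32 CPM in T497A TAC and 5.21, 5.41 and 4.79 CPM in WT TAC. Ccl21a after sham was at 6.86, 6.88 and 6.96 CPM in T497A and 3.91, 4.0 and 3.21 CPM in WT. The T497A sham libraries lay above the 9 others, and the WT TAC libraries above those of WT sham. Ccl21a was higher in T497A sham than in WT sham (0.90 ± 0.17, adjusted p = 0.00738), which held under every alternative. It fell in T497A TAC against T497A sham (-0.58 ± 0.17, adjusted p = 0.0233) and rose in WT TAC against WT sham (0.47 ± 0.17, adjusted p = 0.0351). The fall was lost without T497A sham 2 (0.0526), T497A sham 3 (0.0597), T497A TAC 2 (0.0659) and T497A TAC 3 (0.083). The WT rise was lost without WT sham 1 (0.0579), WT sham 3 (0.137), WT TAC 1 (0.081), WT TAC 2 (0.081) and T497A TAC 2 (0.0535). It was also lost without the whole T497A sham group (0.0561). Lymphatic endothelial markers, 6 genes in all, summed to 139 to 179 CPM in T497A TAC, 129 to 139 in WT TAC, 183 to 197 in T497A sham and 162 to 171 in WT sham. The sum was highest in T497A sham, as Ccl21a was. In WT it was lower after TAC than after sham, while Ccl21a was higher. The part of these markers in the result was not tested. Near-identical copies of the gene, Ccl21b and Ccl21d, are listed at 0 in all libraries, and the sources used here do not say how reads that match several copies were counted.

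Ccl27a (ENSMUSG00000073888.13, chromosome 4, 41769467 to 41774247, minus strand), known as a skin ligand of Ccr10, separated all 4 groups. It was at 1.85, 2.08 and 1.96 CPM in T497A TAC and 0.962, 0.787 and 0.983 CPM in WT TAC. Ccl27a after sham was at 1.73, 1.46 and 1.41 CPM in T497A and 2.71, 2.31 and 2.59 CPM in WT. No group overlapped another, with WT sham highest, then T497A TAC, T497A sham and WT TAC. Ccl27a fell in WT TAC against WT sham (-1.48 ± 0.19, adjusted p = 1.62e-05), was higher in T497A TAC than in WT TAC (1.11 ± 0.19, adjusted p = 0.000423), and was lower in T497A sham than in WT sham (-0.72 ± 0.19, adjusted p = 0.0339). The first and second of these held under every alternative. The sham difference was lost without WT sham 1 (0.121), WT sham 2 (0.0655), WT sham 3 (0.102), T497A sham 1 (0.0504), T497A sham 2 (0.0852), T497A sham 3 (0.124), WT TAC 1 (0.0518) and T497A TAC 2 (0.0564). T497A TAC against T497A sham was not called (0.35 ± 0.19, adjusted p = 0.19). Its exons overlap those of Il11ra1, the interleukin-11 receptor, on the other strand, which averaged 43.1 CPM in T497A TAC, 35.7 in WT TAC, 53.1 in T497A sham and 48.9 in WT sham. Il11ra1 was also lowest in WT TAC, though highest in T497A sham. Reads of the overlap and reads shared with the copy Ccl27b, which is listed at 0, make this level uncertain.

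The second run of CC genes on chromosome 11, with Ccl5, Ccl9, Ccl6, Ccl3 and Ccl4 over 139 kb, holds ligands of Ccr1 among others. Ccl6 (ENSMUSG00000018927.3, chromosome 11, 83587882 to 83593087, minus strand), a rodent ligand of Ccr1 made by macrophages, was at 8.74, 8.49 and 13.2 CPM in T497A TAC and 8.57, 12.5 and 6.08 CPM in WT TAC. Ccl6 after sham was at 24.4, 13.1 and 25.1 CPM in T497A and 9.71, 11.7 and 10.1 CPM in WT. T497A sham held the highest libraries, with its library 2 just below T497A TAC 3. Ccl6 fell in T497A TAC against T497A sham (-1.04 ± 0.31, adjusted p = 0.035), a call lost under 11 of 21 alternatives, among them leaving out WT sham 1 (0.0529), WT sham 2 (0.0507), WT sham 3 (0.0521), T497A sham 1 (0.103), T497A sham 3 (0.111), WT TAC 1 (0.0545), T497A TAC 1 (0.117) and T497A TAC 2 (0.12). T497A sham against WT sham was not called (0.99 ± 0.31, adjusted p = 0.103), nor was WT TAC against WT sham (-0.22 ± 0.31, adjusted p = 0.597). The ratio of T497A sham to WT sham for Ccl6 was called by DESeq2 (adjusted p = 0.0295) and without T497A sham 2 (adjusted p = 0.0285). Ccl9 (ENSMUSG00000019122.8, chromosome 11, 83572919 to 83578636, minus strand), also a Ccr1 ligand of rodents, was not called by edgeR with TMM factors and the full counts of all 12 libraries. It was at 6.77, 8.95 and 10.9 CPM in T497A TAC, 7.94, 11.2 and 6.40 CPM in WT TAC, 15.1, 9.54 and 13.9 CPM in T497A sham and 6.91, 8.14 and 6.49 CPM in WT sham, and T497A sham lay above WT sham in all 3 libraries (0.84 ± 0.23, adjusted p = 0.0596). That difference in Ccl9 was called by DESeq2 (adjusted p = 0.00422), by limma-voom (adjusted p = 0.0281) and by edgeR on the 2 sham groups alone (adjusted p = 0.0152), and in all under 7 of 21 alternatives. Without T497A sham 2, Ccl9 was also called lower in T497A TAC than in T497A sham (-0.71, adjusted p = 0.046).

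Ccl4 (ENSMUSG00000018930.3, chromosome 11, 83662584 to 83664683, plus strand), a macrophage-derived attractant of monocytes and T cells, had 0 to 48 counts per library. It was at 0.121, 0.277 and 0.300 CPM in T497A TAC and 0.401, 0.630 and 0.176 CPM in WT TAC. Ccl4 after sham was at 0.0980, 0.0609 and 0.200 CPM in T497A and 0.119, 0 and 0.0338 CPM in WT. The WT TAC libraries lay above those of WT sham and overlapped T497A TAC. Ccl4 rose (2.91 ± 0.83, adjusted p = 0.00895) in WT TAC against WT sham, a size that rests on 2 WT sham libraries at or under 3 counts, which correspond to 0.0378 to 0.0550 CPM. Its neighbour Ccl3, a ligand of Ccr1, stayed between 0 and 0.459 CPM, and Ccl5, which also binds Ccr1 and is made by T cells and macrophages, stayed between 0.273 and 1.92 CPM. Neither was called by edgeR in any comparison with all 12 libraries, and without WT sham 3, Ccl5 was called higher in WT TAC than in WT sham (adjusted p = 0.0396).

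Of the remaining tested ligands, Ccl25 (ENSMUSG00000023235.14, chromosome 8, 4325210 to 4360020, plus strand), known from thymus and gut, was at 1.27, 1.6 and 1.17 CPM in T497A TAC, 1.35, 1.43 and 1.61 CPM in WT TAC, 1.36, 1.45 and 1.45 CPM in T497A sham and 1.14, 0.954 and 1.86 CPM in WT sham. All 4 groups overlapped, and its exons overlap those of Elavl1 on the other strand. Ccl22, a ligand of Ccr4 from dendritic cells and macrophages, lay between 0 and 1.05 CPM and was called higher in WT TAC than in WT sham under 6 of 21 alternatives, among them leaving out WT sham 3 (adjusted p = 0.0439) or T497A sham 2 (adjusted p = 0.024). Ccl28, a mucosal ligand of Ccr10, lay between 0 and 0.404 CPM. Cxcl13, which attracts B cells through Cxcr5, lay between 0 and 0.632 CPM and was called with all 12 libraries in the added comparison, lower in WT TAC than in T497A sham (-3.43 ± 1.23, adjusted p = 0.0315). That call was lost without T497A sham 3 (0.197), WT TAC 2 (0.0794) and WT TAC 3 (0.0989). Without T497A sham 2, Cxcl13 was also called lower in T497A TAC than in T497A sham (adjusted p = 0.0385). The 13 ligands that failed the filter had at most 96 counts over 12 libraries. Ccl17 had 96, Xcl1 67, Ccl19 54, Cxcl11 43 and Cxcl17 22, while Cxcl3, Ccl1, Ccl26, Cxcl15 and Ccl20 had between 2 and 8 and Ccl21b, Ccl21d and Ccl27b had 0. The 8 counts of Cxcl3, a neutrophil attractant beside Cxcl1 and Cxcl2, came from T497A TAC 1 and T497A TAC 2.

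Most of the tested receptors of these ligands rose with TAC in WT ventricles. Of 18 listed signalling receptors 13 were tested. In WT TAC against WT sham 8 were higher and none lower, or 61.5%, where 49.9% of all genes were called and 25.9% were called higher. Without WT sham 1, WT TAC 1, WT TAC 2 or T497A TAC 2 the count of 8 was 6. Cx3cr1, the receptor of Cx3cl1, was at 9.56, 7.35 and 3.96 CPM in T497A TAC and 20.2, 29.3 and 13.0 CPM in WT TAC. Cx3cr1 after sham was at 0.817, 2.01 and 2.16 CPM in T497A and 4.37, 3.94 and 3.31 CPM in WT. The 2 TAC groups did not overlap and each lay above its own sham group. Cx3cr1 rose (2.43 ± 0.43, adjusted p = 0.00102) in WT TAC and (2.06 ± 0.45, adjusted p = 0.00925) in T497A TAC against T497A sham, and was lower in T497A TAC than in WT TAC (-1.58 ± 0.41, adjusted p = 0.0139). The last call was lost without WT TAC 2 (0.0585).

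Ccr2, the receptor of Ccl2, Ccl7 and Ccl12, was at 8.80, 7.0 and 4.09 CPM in T497A TAC and 15.5, 21.9 and 14.96 CPM in WT TAC. Ccr2 after sham was at 3.27, 2.89 and 2.36 CPM in T497A and 3.89, 3.96 and 3.18 CPM in WT. WT TAC was highest and T497A TAC lay between it and the sham groups. Ccr2 rose (2.25 ± 0.25, adjusted p = 1.21e-05) in WT TAC and (1.22 ± 0.25, adjusted p = 0.00418) in T497A TAC against T497A sham, and was lower in T497A TAC than in WT TAC (-1.40 ± 0.24, adjusted p = 0.000735). Cxcr6, the receptor of Cxcl16, rose (3.23 ± 0.49, adjusted p = 7.85e-05) in WT TAC and was lower in T497A TAC than in WT TAC (-2.26 ± 0.46, adjusted p = 0.00144). Cxcr4, the receptor of Cxcl12, rose (1.16 ± 0.18, adjusted p = 8.95e-05) in WT TAC and (0.87 ± 0.18, adjusted p = 0.00319) in T497A TAC against T497A sham, and was lower in T497A TAC than in WT TAC (-0.75 ± 0.18, adjusted p = 0.00403). Ccr7 (1.96), Ccr1 (1.44) and Xcr1 (1.34) were also higher in WT TAC. Xcr1 was lost without WT sham 1 (0.102), WT sham 2 (0.0984), WT TAC 1 (0.0792), WT TAC 2 (0.105) and T497A TAC 2 (0.0547).

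Of the 13 receptors 7 were lower and none higher in T497A TAC than in WT TAC, or 53.8%, where 35.7% of all genes were called and 17.9% were called lower. Besides those above they included Ccr7 (-1.38) and Ccr1 (-1.11), and 4 calls were left without WT TAC 2. Ccr7 was lost without WT TAC 1 (0.0539), WT TAC 2 (0.182), WT TAC 3 (0.0525), T497A TAC 1 (0.0808), T497A TAC 2 (0.0539) and T497A TAC 3 (0.139). In T497A TAC against T497A sham 4 receptors rose, or 30.8%, where 24.4% of all genes were called and 12.9% were called higher. The fourth was Cxcr2, the receptor of Cxcl1 and Cxcl2, at 0.0607, 0.277 and 0.258 CPM in T497A TAC and 0, 0.0305 and 0.0666 CPM in T497A sham (2.56 ± 0.87, adjusted p = 0.0444), and the call was lost under 10 of 18 alternatives, among them leaving out WT sham 1 (0.058), WT sham 2 (0.0634), WT sham 3 (0.0652), T497A sham 1 (0.131), T497A sham 2 (0.115), WT TAC 1 (0.0654), WT TAC 3 (0.0555), T497A TAC 2 (0.15) and T497A TAC 3 (0.126). No receptor was called by edgeR in T497A sham against WT sham, where 4 had an unadjusted p under 0.05, DESeq2 called 1 and limma-voom 0. None was called by edgeR in T497A TAC against WT sham either, where 3 had an unadjusted p under 0.05, DESeq2 called 1 and limma-voom 3.

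**Figure D4:**
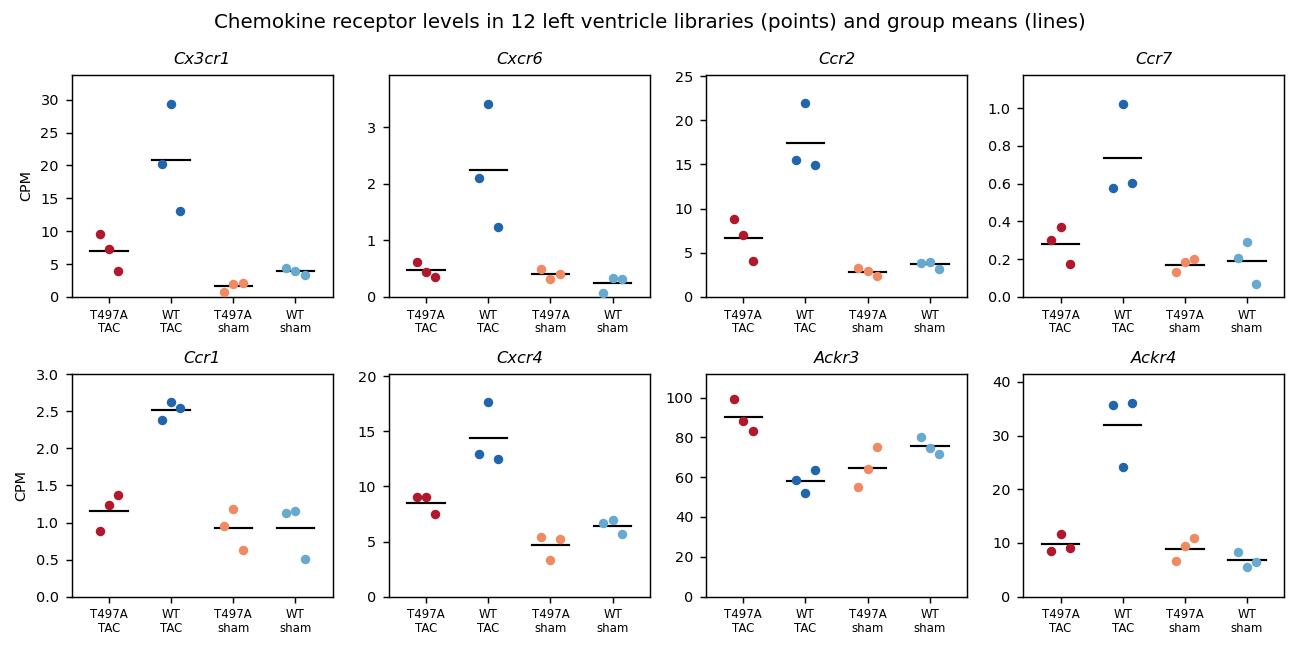
Level of 8 chemokine receptors in CPM in each of the 12 libraries, 1 point per library, by group of 3. Ccr2 averages 6.63 CPM in T497A TAC, 17.5 in WT TAC, 2.84 in T497A sham and 3.68 in WT sham, and Ackr3 90.3 in T497A TAC, 58.1 in WT TAC, 64.7 in T497A sham and 75.6 in WT sham.

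All 5 atypical receptors, which bind chemokines without the usual signalling and in part scavenge them, were tested. Ackr4, which clears Ccl19, Ccl21 and Ccl25, was at 8.50, 11.7 and 9.07 CPM in T497A TAC, 35.7, 24.2 and 36.1 CPM in WT TAC, 6.53, 9.41 and 10.9 CPM in T497A sham and 8.22, 5.48 and 6.47 CPM in WT sham. It rose (2.25 ± 0.23, adjusted p = 1.06e-05) in WT TAC and was lower in T497A TAC than in WT TAC (-1.72 ± 0.22, adjusted p = 0.000154). Ackr3, the scavenger of Cxcl12, was at 99.2, 88.2 and 83.4 CPM in T497A TAC, 58.7, 51.8 and 63.7 CPM in WT TAC, 54.8, 64.1 and 75.1 CPM in T497A sham and 80.4, 74.8 and 71.6 CPM in WT sham. It fell in WT TAC against WT sham (-0.38 ± 0.11, adjusted p = 0.00997), which was lost with library totals in place of TMM factors (adjusted p = 0.678) and without WT TAC 2 (0.0519). Ackr3 rose (0.48 ± 0.11, adjusted p = 0.00603) in T497A TAC against T497A sham and was higher in T497A TAC than in WT TAC (0.64 ± 0.11, adjusted p = 0.00053). Ccrl2, which binds chemerin, fell in WT TAC (-1.30 ± 0.18, adjusted p = 7.04e-05) and was higher in T497A TAC than in WT TAC (1.19 ± 0.18, adjusted p = 0.000297), and Ackr2, a scavenger of inflammatory CC ligands, rose in WT TAC (0.99 ± 0.23, adjusted p = 0.00223).

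The listed NF-kB and interferon regulators, which act upstream of many inflammatory ligands, moved after TAC in both genotypes. Of 24 listed genes 21 were tested. In WT TAC against WT sham 14 rose and 1 fell, or 71.4%, where 49.9% of all genes were called and 25.9% were called higher. Among them were Bcl3 (1.58 ± 0.16, adjusted p = 1.96e-06), a nuclear co-regulator of NF-kB, and Tlr2 (1.47 ± 0.17, adjusted p = 6.41e-06), a receptor of microbial and damage signals. Without WT sham 2, WT sham 3 or WT TAC 2 the count of 15 called regulators was 11, a share closer to that of all genes. In T497A TAC against T497A sham 10 rose and none fell, or 47.6%, where 24.4% of all genes were called and 12.9% were called higher. Among them were the NF-kB subunits Relb (1.33 ± 0.14, adjusted p = 2.28e-05) and Rela (0.49 ± 0.06, adjusted p = 5.74e-05). In T497A sham against WT sham 2 regulators were lower and none higher, or 9.52%, where 5.79% of all genes were called and 2.80% were called lower. Rela was among these 2, so its rise in T497A TAC starts from a lower sham level. The sham call of Rela was lost under several alternatives, among them leaving out WT sham 3 (0.168) or T497A sham 3 (0.162). In T497A TAC against WT TAC 2 were higher and 8 lower, or 47.6%, where 35.7% of all genes were called, 17.8% higher and 17.9% lower. Without WT TAC 2 there were 6 calls. In T497A TAC against WT sham 9 were higher, or 42.9%, where 10.0% of all genes were called and 6.12% were called higher. Of those 9 calls 7 were lost without WT sham 2, 6 without WT sham 1 or T497A TAC 2, 5 without WT sham 3 and 4 without T497A TAC 1 or T497A TAC 3.

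The TAC response itself differed between genotypes for 7 ligands by the interaction term, 4 higher and 3 lower in T497A, or 26.9% of the tested ligands, where 29.5% of all genes were called. The median of the ligands' interaction terms was -0.54, against -0.01 for all genes. The 4 were Ccl11, Ccl27a, Ccl24 and Ccl7, and the 3 were Ccl8, Ccl21a and Cx3cl1. The interaction uses the T497A sham libraries. Among the receptors 3 of 13 were called, Cxcr6 (-3.0 ± 0.68, adjusted p = 0.00456), Ccr2 (-1.03 ± 0.35, adjusted p = 0.0447) and Cxcr2 (3.90 ± 1.14, adjusted p = 0.0195). The count was 1 without WT sham 2 or T497A TAC 2. Cxcr2 was lost without WT sham 2 (0.0528), T497A TAC 2 (0.0572) and T497A TAC 3 (0.0514), and Ccr2 without WT sham 1 (0.0745), WT sham 2 (0.0702), WT sham 3 (0.104), T497A sham 1 (0.106), T497A sham 2 (0.0854), WT TAC 1 (0.052), WT TAC 2 (0.0953) and T497A TAC 2 (0.0724).

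Markers of immune cells moved with some of these ligands and against others. The 6 monocyte markers summed to 7.35 to 11.1 CPM in T497A TAC, 18.2 to 32.7 in WT TAC, 3.93 to 6.29 in T497A sham and 5.27 to 6.31 in WT sham. Ccr2, whose levels are given above with the receptors, is among these 6, so the sum is not separate from the receptor result. In WT TAC against WT sham 3 of the 6 were called higher, where 49.9% of all genes were called. Between T497A TAC and WT TAC 2 were lower in T497A, where 35.7% of all genes were called. For the TAC groups Ccl12 had the same order as the monocyte sum. Mean Ccl2 (3.98 CPM in T497A TAC, 2.48 in WT TAC) and mean Ccl7 (2.30 and 1.37) had the reverse order, with neither difference called in the main analysis. Both differences were called under some alternatives, given above. Ccl11, Ccl24, Ccl27a and Cxcl14 were lowest in WT TAC, where the monocyte sum was highest. T and natural killer cell markers, 9 genes, summed to 2.67 to 3.68 CPM in T497A TAC, 4.06 to 5.70 in WT TAC, 3.99 to 6.29 in T497A sham and 2.47 to 4.02 in WT sham. Endothelial markers, 8 genes, summed to 1513 to 1641 CPM in T497A TAC, 1514 to 1759.7 in WT TAC, 1164 to 1402 in T497A sham and 1472 to 1509 in WT sham, and cardiomyocyte markers, 8 genes, to 59335 to 63888 CPM in T497A TAC, 35898 to 41643 in WT TAC, 70982 to 72791 in T497A sham and 65870 to 73478 in WT sham. No gene of the monocyte, macrophage, fibroblast, endothelial or cardiomyocyte lists was at 0 throughout a group. The part of these cell types in the ligand differences was not tested.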

How the data were processed

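RNA was extracted from mouse cardiac tissue with the RNeasy kit, and libraries made with the KAPA mRNA HyperPrep kit were sequenced single-end for 50 cycles on a NextSeq2000, per the labels' protocols. Trim Galore 0.6.4, STAR 2.7.3a, featureCounts of Subread 1.6.3 and limma 3.50.3 are named per the submitters' processing notes, which also name the builds mm10 and GRCh38 without a role. Neither names a strand or multi-mapping setting. The deposited values are raw counts per gene for 12 libraries, whole numbers without normalization, that summed to between 58932759 and 72594085 per library. In each library 65.6 to 67.9% of the values from 1 to 20 were even (80.6% of 103 such ligand values), for a cause that was not tested. Coordinates and exon lengths come from GENCODE M21 (GRCm38), which matched 54349 of 55401 IDs with their version and 55141 without. Promoter sequences are RefSeq's, of GRCm38.p6.

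Genes were filtered with edgeR's filterByExpr (minimum count 10, minimum total 15), which kept 17699, scaled by TMM and tested with edgeR 4.0.16 (R 4.3.3) by the robust quasi-likelihood F test on 4 group means over all 12 libraries, with Benjamini-Hochberg adjustment over all genes tested and a threshold of 0.05. There were 6 planned comparisons, with the interaction among them, and 1 added. The script was tested on simulated data. Values for single libraries are given for ligands called in at least 1 planned comparison or averaging at least 1 CPM, the others by range, and of the receptor, enzyme and regulator lists counts with up to 4 called members, and some listed genes are counted but not reported here by name. A floor of 3 counts corresponds to 0.0378 to 0.0550 CPM, which covers counting error only. Alternatives were DESeq2 1.42.0 and its size factors, limma-voom with quality weights (limma 3.58.1), library totals without TMM factors, no filter, 1 CPM in at least 6 libraries, only the groups compared, no T497A sham libraries, a replicate block, each library left out in turn and, added after the data were seen, halved counts. Replicates of a group differed by far more than counting noise, so none was merged. The members and lists were chosen with earlier results of these data known.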

Additional observations from a re-analysis of the deposited data

Results flagged for a closer look

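For 7 ligands the response to TAC differed between T497A and WT ventricles by the interaction term of edgeR's quasi-likelihood test, given as the log2 change in T497A minus that in WT. All of these use the T497A sham libraries, whose sex-linked transcripts differ from those of the other 9 libraries, and the part of that difference was not tested. The term was 2.88 for Ccl11 (adjusted p = 0.00134), with log2 changes after TAC of 0.21 in T497A and -2.67 in WT. For Ccl27a it was 1.83 (adjusted p = 0.000202), with changes of 0.35 in T497A and -1.48 in WT. For Ccl24 it was 1.71 (adjusted p = 0.016), with -0.12 in T497A and -1.83 in WT, and for Ccl7 1.61 (adjusted p = 0.0124), with 2.00 in T497A and 0.39 in WT.

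Ccl21a differed by -1.05 (adjusted p = 0.00495), with changes of -0.58 in T497A and 0.47 in WT, and every T497A sham library lay above the 9 others. Ccl8 differed by -2.38 (adjusted p = 0.0459), with 0.58 in T497A and 2.96 in WT. That call was lost under 13 of 20 alternatives, among them leaving out WT sham 1 (0.0964), WT sham 2 (0.0654), WT sham 3 (0.0695), T497A sham 1 (0.078), WT TAC 1 (0.0641), WT TAC 2 (0.0999), WT TAC 3 (0.0758), T497A TAC 1 (0.097), T497A TAC 2 (0.0717) and T497A TAC 3 (0.0969), with the adjusted p in brackets. Without T497A sham 1 the term for Ccl8 was -1.22, and the log2 change in T497A was 1.73 (adjusted p = 0.00541). Cx3cl1 differed by -0.96 (adjusted p = 0.049), with 0.73 in T497A and 1.69 in WT, a call lost under 10 of 20 alternatives, among them leaving out WT sham 1 (0.102), WT sham 3 (0.103), T497A sham 2 (0.102), T497A sham 3 (0.111), WT TAC 1 (0.0601), WT TAC 2 (0.0669), T497A TAC 1 (0.0864), T497A TAC 2 (0.068) and T497A TAC 3 (0.11). The other 5 calls held under every alternative run.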

How the results depend on the processing

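Over the 26 tested ligands edgeR called 43 pairs of a ligand and a planned comparison, and 18 of them were lost under at least 1 alternative, while 28 pairs that were not called were gained under at least 1. With no filter T497A TAC against WT TAC had 5 called ligands in place of 8, and T497A sham against WT sham 1 in place of 2. DESeq2 called 4 between the sham groups, and limma-voom called 8 in T497A TAC against WT sham in place of 5. Leaving out 1 library at a time gave 5 to 11 called ligands in T497A TAC against WT TAC, 1 to 4 in T497A sham against WT sham, 11 to 14 in WT TAC against WT sham, 5 to 9 in T497A TAC against T497A sham, 0 to 6 in T497A TAC against WT sham, 13 to 16 in WT TAC against T497A sham and 5 to 9 for the interaction. Among the ligand pairs called in the main analysis or under an alternative, Cxcl9 changed sign, in pairs that were not called in the main analysis. Pairs called nowhere were not followed for sign. The log2 ratio of Cxcl9 in T497A sham against WT sham was -0.52 by limma-voom, -0.11 with the replicate block, -0.14 without WT sham 1 and -1.07 without T497A sham 1, in T497A TAC against T497A sham -0.12 without T497A sham 2 and -0.19 without T497A sham 3, and in WT TAC against T497A sham 0.11 by limma-voom and 0.79 without T497A sham 1. Over the 12 libraries left out in turn Cxcl9 ran between -1.07 and 0.46, between -0.19 and 1.34 and between -0.74 and 0.79 in these 3 comparisons.

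Library totals in place of TMM factors moved the median of all genes by -0.25 in T497A TAC against WT TAC, 0.33 in WT TAC against WT sham, 0.28 in WT TAC against T497A sham and -0.30 in the interaction, and by under 0.1 in the others. The split of all called genes then was 1458 higher and 6874 lower in T497A TAC against WT TAC (main 3156 and 3165) and 8466 higher and 1891 lower in WT TAC against WT sham (main 4576 and 4255). In T497A TAC against WT sham it was 1597 and 335 (main 1083 and 690), in T497A sham against WT sham 730 and 375 (main 529 and 495), in WT TAC against T497A sham 7624 and 2193 (main 4532 and 4359), and in the interaction 1175 and 5694 (main 2700 and 2518).

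With a replicate block the counts of called ligands were 8 in T497A TAC against WT TAC, 1 in T497A sham against WT sham, 11 in WT TAC against WT sham, 8 in T497A TAC against T497A sham, 3 in T497A TAC against WT sham, 14 in WT TAC against T497A sham and 7 for the interaction. The 18 correlations between libraries of the same number ran between -0.113 and 0.0742, and 2 of 12 libraries were closest to their own number. No signal shared by replicate number was seen, though a small one could be missed with 3 libraries a group. With 3 libraries a group an exact permutation test of a single gene cannot go below 0.1. Ligands with few counts, such as Ccl4 and Cxcl13, are limited by depth.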
